A study of Homo sapiens with 6 samples.

Results

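Krüppel-like factors are transcription factors that bind GC-rich and CACCC sequences through zinc fingers at their C-terminal end, and they differ mainly in the activating or repressing domains that precede the fingers. In the gut, KLF5 is known from the proliferating cells of the epithelium and KLF4 from cells that leave division and differentiate, while KLF6 is widely expressed and has been described as a tumour suppressor that can induce the cell cycle inhibitor p21. Of the 34866 gene identifiers (IDs) in the deposited table, 6 of this family were examined: Klf6, Klf2, Klf3, Klf4, Klf5 and Klf10. They were chosen from a list of IDs drawn up with results of the same comparison in view, so their differences between the groups are given as descriptions. No p-value of a member is printed. Where a member is said to be called in the fit of all IDs, the call is a description and not independent support.

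Per the labels, the cells were MKN45, a line grown from a human stomach cancer, which the study describes as negative for the gland mucin MUC6. All 6 samples received an adenovirus; in 3 it carried a control short hairpin RNA (shRNA) and in 3 an shRNA against GOLPH3, a Golgi protein that helps to retain glycosyltransferases. The labels do not say whether the replicate numbers stand for separate cultures or for different hairpins, so the spread between samples may be technical. The libraries held 6287037 to 7355140 estimated counts in the control group and 4977645 to 5676169 in the GOLPH3 shRNA group. The table lists mouse Ensembl gene IDs (version mm10 of the mouse genome per the submitters' processing notes) although the labels give human cells. The table does not settle whether the reads were human and were counted on mouse models, or were from the mouse, so fold changes compare libraries at the same ID, and a level describes assigned counts only. Symbols were available only for the 6 IDs. The level of GOLPH3, markers of epithelial and other cells, and the lists of other Krüppel-like and Sp factors, their cofactors and their targets were therefore not analysed here.

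The shared part of the family is shown first, as a description of the human sequence. The lines below give, for the human genes, 60 bases of coding sequence from GENCODE release 29 that run from the end of the first zinc finger through the linker into the second finger. Capitals mark the 35 positions at which the 5 genes shown have the same base. KLF10 is not shown and was left out of that count, though it enters the identities below.

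KLF6: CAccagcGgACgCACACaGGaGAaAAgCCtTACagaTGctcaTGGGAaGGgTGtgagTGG
KLF2: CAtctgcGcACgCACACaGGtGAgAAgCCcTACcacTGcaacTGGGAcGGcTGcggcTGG
KLF3: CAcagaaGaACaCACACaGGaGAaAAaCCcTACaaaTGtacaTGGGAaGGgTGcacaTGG
KLF4: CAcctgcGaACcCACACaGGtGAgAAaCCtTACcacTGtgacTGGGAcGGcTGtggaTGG
KLF5: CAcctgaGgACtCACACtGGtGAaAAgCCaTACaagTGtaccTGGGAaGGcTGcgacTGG

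Over the whole zinc finger region of 243 bases, KLF6 matched KLF3 at 72.4% of positions, KLF5 at 71.2%, KLF4 at 67.5%, KLF2 at 65.4% and KLF10 at 62.1%. The closest pair was KLF2 and KLF4 at 78.6%. The longest identical run between the principal transcripts of any pair was 24 bases, found between KLF6 and KLF3 and between KLF6 and KLF10. An estimated count with a fractional part can arise when a read is divided between gene models. How the estimates were made is not stated. Any link between the human identities above and fractional counts at the mouse IDs was not tested. Klf6, Klf5 and Klf2 had whole counts (equal to an integer as deposited, with a tolerance of 0) in all 6 libraries, Klf4 in 3 of them, and Klf3 and Klf10 in 0, so the values of Klf4, Klf3 and Klf10 are uncertain to that extent.

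Klf6, Klf5, Klf4, Klf3 and Klf10 had lower values in each of the 3 GOLPH3 shRNA libraries than in all 3 controls, and the fitted decrease was 1.24-fold to 3.08-fold. Klf3 fell most, to 32.5% of the control level, Klf6 and Klf5 fell to 56.9% and 59.7%, and Klf4 and Klf10 fell to 77.9% and 80.6%. Klf2 had low counts in both groups, at most 14 in a library (GOLPH3 shRNA replicate 2). Its values overlapped, and it did not pass the filter on low counts. In the edgeR quasi-likelihood fit of all IDs, 5 of the 5 members that passed the filter on low counts were called lower (Benjamini-Hochberg adjusted p below 0.05) and 0 higher; over all 11400 tested IDs, 17.8% were called lower. The 3 GOLPH3 shRNA values lay wholly below the 3 control values for the same 5 members, and for 24.2% of all tested IDs. Since the members were chosen with this comparison in view, nothing is read from these counts. In bulk samples, fewer cells that express a gene and less RNA per cell cannot be told apart.

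**Figure D1:**
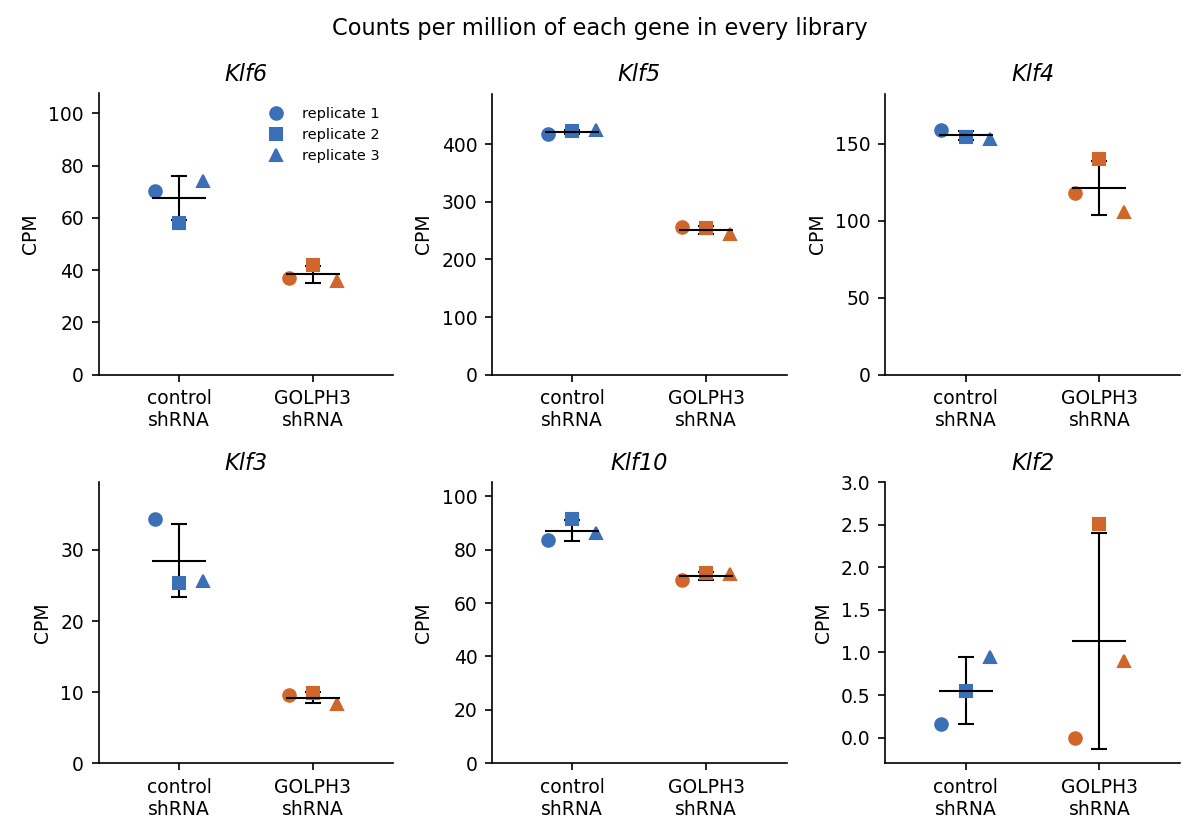
Scaled counts (CPM, vertical axes, linear, a separate scale per gene) of the 6 Klf genes in each of 3 control shRNA and 3 GOLPH3 shRNA libraries. Points are libraries, with a symbol per replicate number, and black bars are the mean and SD (n = 3); the groups are separate in 5 panels and overlap for Klf2.

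Among the factors known mainly as activators, Klf6 (ENSMUSG00000000078.7) had 70.4, 58.2 and 74.2 CPM in control replicates 1, 2 and 3, where CPM are counts scaled to a common effective library total. In the GOLPH3 shRNA replicates it had 37.1, 42.1 and 36.0 CPM. The group means were 67.6 ± 8.35 and 38.4 ± 3.25 CPM (SD, n = 3), and the log2 fold change was -0.81 (SE 0.12). The groups did not overlap: the lowest control library, replicate 2, was 1.38-fold above the highest GOLPH3 shRNA library, which was also a replicate 2. The control values of Klf6 varied more than counting error, with a coefficient of variation of 12.4% where the counts alone (427 to 471 per library) would give 4.72%.

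Klf5 (ENSMUSG00000005148.8), which promotes proliferation in many epithelia and is amplified in some gastric cancers, had 8473 counts in the control group and 4035 in the GOLPH3 shRNA group, and its control libraries scattered least of the members. Its control libraries had 418, 422 and 424 CPM, and its GOLPH3 shRNA libraries had 257, 254 and 244 CPM. The means were 421 ± 3.24 and 252 ± 6.89 CPM (SD, n = 3), a log2 fold change of -0.74 (SE 0.064). The spread within either group was close to or below that of counting, with coefficients of variation of 0.770% and 2.74% against 1.89% and 2.73% from the counts. The gap between the groups, 1.63-fold from the lowest control to the highest GOLPH3 shRNA library, was wider than for Klf6.

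Klf4 (ENSMUSG00000003032.8), a regulator of epithelial differentiation that is also used to reprogram cells to pluripotency, changed less and less evenly. It had 159, 154 and 153 CPM in the control libraries, which lay close together. In the GOLPH3 shRNA libraries it had 118, 140 and 106 CPM, with replicate 2 nearest to the controls. The means were 156 ± 2.93 and 121 ± 17.5 CPM (SD, n = 3), with a log2 fold change of -0.36 (SE 0.092). The groups were separated by only 1.09-fold. The log2 fold change was -0.48 without GOLPH3 shRNA replicate 2 and -0.27 without GOLPH3 shRNA replicate 3, and the gene was called in both cases.

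Klf2 (ENSMUSG00000055148.7), best known from endothelial cells and resting T cells, had 1, 4 and 6 counts in the control libraries and 0, 14 and 5 in the GOLPH3 shRNA libraries. In the library with a count of 0, a level of 3 counts would be 0.608 CPM. The exact 95% interval for that library reaches up to 0.748 CPM. The highest value was 2.51 CPM, in GOLPH3 shRNA replicate 2. Summed over each group, 19 counts against 11 gave a ratio of 2.16 between GOLPH3 shRNA and control, with an exact 95% interval of 0.978 to 5.03 that covers counting error only. The values overlapped, and 14 of the 19 counts came from 1 library. The gene did not pass the filter on low counts, and a difference was not detectable at this depth.

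Among the factors known as repressors, Klf3 (ENSMUSG00000029178.14), which recruits the corepressor CtBP, had 34.4, 25.4 and 25.7 CPM in the control libraries. It had 9.53, 9.85 and 8.31 CPM with GOLPH3 shRNA. The means were 28.5 ± 5.13 and 9.23 ± 0.810 CPM (SD, n = 3), and the log2 fold change was -1.62 (SE 0.18). Control replicate 1 stood above the other controls, and the lowest control was still 2.58-fold above the highest GOLPH3 shRNA library. The estimate rests on 570 counts in the control group and 148 in the GOLPH3 shRNA group, the fewest of the called members.

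Klf10 (ENSMUSG00000037465.10), described as an early gene of the response to transforming growth factor beta, had 83.8, 91.6 and 86.2 CPM in the control libraries. It had 68.5, 71.3 and 71.0 CPM with GOLPH3 shRNA. The means were 87.2 ± 4.03 and 70.3 ± 1.52 CPM (SD, n = 3), and the log2 fold change was -0.31 (SE 0.087). The groups were separate by 1.18-fold. This was the smallest difference of the 5, and the only one whose call ended under an alternative: without control replicate 2, its highest control library, the log2 fold change was -0.28 (SE 0.10) and the gene was not called. In that fit fewer IDs of all kinds were called lower, 1644 beside 2030 with all libraries.

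**Figure D2:**
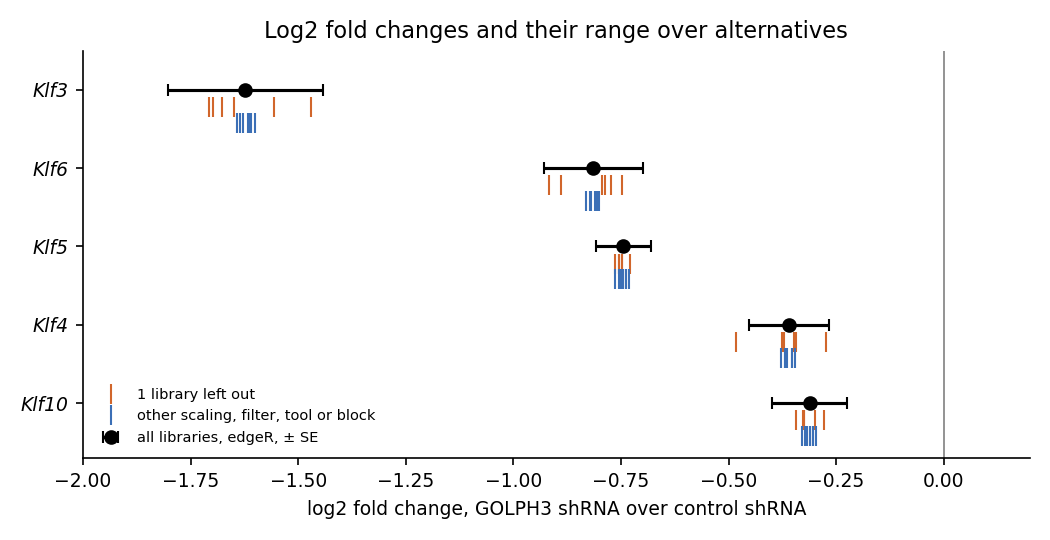
Log2 fold change (horizontal axis, GOLPH3 shRNA over control shRNA) of the 5 tested Klf genes, with all libraries (black points, bars ± SE), with 1 library left out (orange ticks) and with another scaling, filter, tool or a replicate block (blue ticks). All ticks lie below 0, from -1.71 for Klf3 to -0.27 for Klf4.

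Set among all tested IDs, the 5 log2 fold changes spread from the far end of the distribution to its shoulder. Of the 11400 IDs, 85 had a lower log2 fold change than Klf3, 704 than Klf6, 870 than Klf5, 2592 than Klf4 and 2898 than Klf10. The median log2 fold change of the 5 was -0.74, beside 0.0019 over all tested IDs and -0.59 over those called lower. Klf6 and Klf5 were thus a little past the median of the IDs called lower, Klf3 well past it, and Klf4 and Klf10 short of it. The CPM carry no correction for gene length, so the members' levels are not compared with each other.

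**Figure D3:**
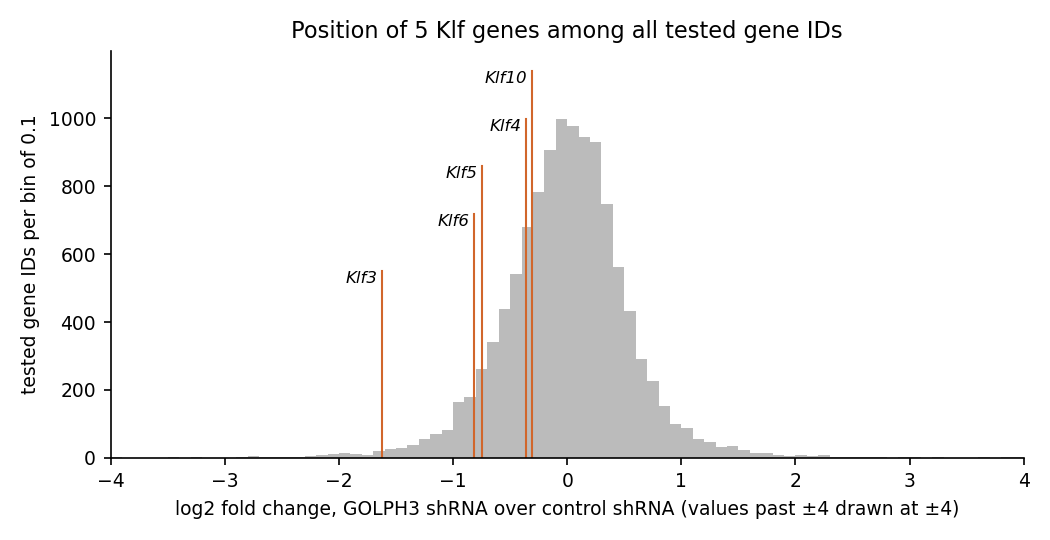
Number of tested gene IDs per bin of 0.1 log2 fold change (vertical axis) against log2 fold change (horizontal axis) for all 11400 tested IDs in grey. Orange lines mark the 5 Klf genes: Klf3 has 85 IDs below it, and Klf4 and Klf10 lie on the left shoulder of the distribution.

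The decreases differed in size between members. Ratios between 2 members within a library do not depend on the library total or on scaling, and they were computed for the 10 pairs of the 5 tested genes. In 8 of the 10 pairs the ratios of the control libraries and of the GOLPH3 shRNA libraries did not overlap. The 10 pairs come from only 5 genes and are not independent. The share of such pairs among other tested IDs was not computed, so nothing is read from this count. The pairs whose ratios overlapped were Klf6 with Klf5 and Klf4 with Klf10. The ratio of Klf6 to Klf5 counts was 0.168, 0.138 and 0.175 in the control libraries and 0.144, 0.166 and 0.148 with GOLPH3 shRNA, a mean log2 difference of -0.068 (SE 0.12). The ratio of Klf4 to Klf10 was 1.90, 1.68 and 1.78 in the controls and 1.72, 1.97 and 1.49 with GOLPH3 shRNA, a mean log2 difference of -0.059 (SE 0.13). With SEs of this size, a modest difference within either pair would not be seen.

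Klf3 was lower relative to each of the other 4 genes in all GOLPH3 shRNA libraries. Its ratio to Klf10 went from 0.410, 0.276 and 0.299 in the controls to 0.140, 0.138 and 0.116 with GOLPH3 shRNA, a mean log2 difference of -1.31 (SE 0.19). Its ratio to Klf5 went from 0.0676 ± 0.0126 to 0.0366 ± 0.00248 (SD, n = 3). The ratio of Klf5 to Klf10, the pair with the smallest SE of the log2 difference, was 4.98, 4.61 and 4.92 in the controls and 3.75, 3.57 and 3.43 with GOLPH3 shRNA, a mean log2 difference of -0.43 (SE 0.052). Klf5 was also lower relative to Klf4: the ratio of Klf4 to Klf5 had a mean of 0.369 ± 0.00978 in the controls and of 0.481 ± 0.0622 (SD, n = 3) after GOLPH3 shRNA. By the fitted log2 fold changes, the order of the decreases was Klf3 (-1.62), Klf6 (-0.81), Klf5 (-0.74), Klf4 (-0.36) and Klf10 (-0.31). Whether the ratios of a pair overlapped is not used to rank the members, since the share among other IDs was not computed. With 3 libraries a group the ratios are descriptions of the spread, and no test was made.

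**Figure D4:**
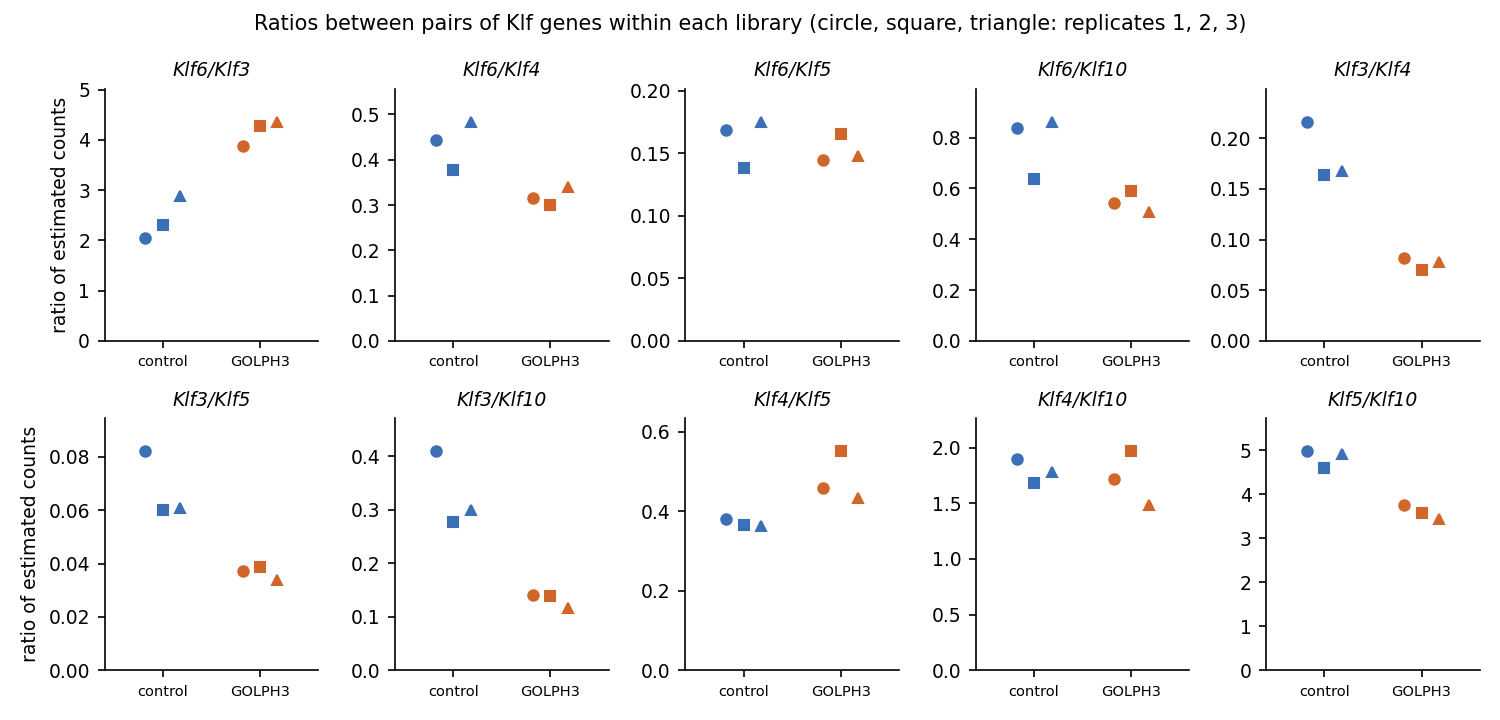
Ratio of the estimated counts of 2 Klf genes within each library (vertical axes, linear from 0) for the 10 pairs of tested genes, with 3 control shRNA (blue) and 3 GOLPH3 shRNA (orange) libraries per panel. The groups overlap in the Klf6/Klf5 and Klf4/Klf10 panels and are separate in the other 8.

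By pattern over the 6 libraries, the members stood at different distances from Klf6. The Pearson correlation of log2 CPM with Klf6 was 0.96 for Klf3 and for Klf5, 0.89 for Klf4 and 0.88 for Klf10. Of 9537 other IDs with a mean of at least 5 CPM, 191 had a higher correlation with Klf6 than Klf3 did, 244 than Klf5, 1105 than Klf4 and 1229 than Klf10. The called IDs most like Klf6 were ENSMUSG00000025907.14 (r = 0.997, 51.3 ± 3.55 CPM in the controls and 38.8 ± 1.41 with GOLPH3 shRNA) and ENSMUSG00000034724.17 (r = 0.995, 106 ± 6.25 and 72.2 ± 5.25 CPM). The most opposite were ENSMUSG00000044934.13 (r = -0.996, 11.4 ± 2.07 and 20.8 ± 1.95 CPM) and ENSMUSG00000006315.9 (r = -0.995, 41.2 ± 3.53 and 59.5 ± 2.85 CPM), with SD over 3 libraries in each case. These correlations over 6 libraries mostly restate the difference between the groups, and the IDs carry no symbols here.

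As a description of the members' sequence, which played no part in their choice, the stretches upstream of the human starts were searched for the motifs that factors of this family bind. RefSeq promoters on GRCh38.p14 were matched by symbol for 4 of the 6 members (KLF6, KLF5, KLF4 and KLF2), and the 250 bases before each start were used. Entries on a single chromosome were also left out. It was not that of KLF3 (chromosome 4), so KLF3 had no entry under its symbol. KLF10 was not placed on a chromosome here, so it need not lack a promoter entry. The motifs were CACCC and the GC box GGGCGG on both strands, which shared no base in these sequences. On the opposite strand they read GGGTG and CCGCCC. Capitals mark the matches in the sequences of the 3 called members, which lie at chr10:3785210-3785459 on the minus strand for KLF6, at chr13:73058755-73059004 on the plus strand for KLF5 and at chr9:107489770-107490019 on the minus strand for KLF4.

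KLF6: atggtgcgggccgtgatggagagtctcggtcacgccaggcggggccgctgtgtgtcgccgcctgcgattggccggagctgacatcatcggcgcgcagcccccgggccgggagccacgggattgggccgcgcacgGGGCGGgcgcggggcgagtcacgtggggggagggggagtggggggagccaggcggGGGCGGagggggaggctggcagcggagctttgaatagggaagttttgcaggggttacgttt
KLF5: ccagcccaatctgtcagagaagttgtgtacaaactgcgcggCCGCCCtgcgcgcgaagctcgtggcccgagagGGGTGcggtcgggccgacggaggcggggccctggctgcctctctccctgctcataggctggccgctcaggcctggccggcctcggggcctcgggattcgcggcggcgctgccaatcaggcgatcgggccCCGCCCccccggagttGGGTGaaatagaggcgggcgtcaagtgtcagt
KLF4: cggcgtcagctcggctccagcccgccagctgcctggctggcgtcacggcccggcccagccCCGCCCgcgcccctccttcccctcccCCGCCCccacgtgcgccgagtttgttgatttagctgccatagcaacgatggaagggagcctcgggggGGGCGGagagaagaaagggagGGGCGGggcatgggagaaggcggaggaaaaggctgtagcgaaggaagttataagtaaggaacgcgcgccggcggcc

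KLF6 had 2 GC boxes and 0 CACCC, KLF5 had 2 of each, and KLF4 had 4 GC boxes and 0 CACCC. KLF2, the member that did not pass the filter on low counts, had 4 GC boxes and 0 CACCC. RefSeq gives KLF5 a second start upstream, whose 250 bases had 1 CACCC, 0 GC boxes and a GC content of 40.8%. Of 35116 promoter entries of the same length, 42.6% held at least 1 GC box, 24.3% at least 2 and 7.63% at least 4; 54.7% held at least 1 CACCC and 23.1% at least 2. The other stretches had a GC content of 72.4% for KLF6, 70.8% for the KLF5 sequence shown, 69.2% for KLF4 and 80.0% for KLF2, where the median entry had 58.0%; the shares above are over entries of all GC contents. These matches describe the human sequence only. They would not be the promoters of the cells if the reads were from the mouse.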

How the data were processed

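Libraries were made with a stranded mRNA kit, per the labels' protocols. The deposited table holds the authors' estimated counts by mouse Ensembl gene ID, 1 column per sample; the submitters' processing notes name the build mm10, and the quantifier, annotation release and strand setting are not stated in the labels or the table. Estimated counts were rounded. The filterByExpr step of edgeR kept 11400 of 34866 IDs, which were compared between 3 GOLPH3 shRNA and 3 control samples with edgeR 4.0.16 in R 4.3.3 (TMM factors, quasi-likelihood F test, Benjamini-Hochberg adjustment over all tested IDs, call at an adjusted p below 0.05). SEs were obtained from the fold change and the F statistic (log2 fold change over root F). CPM use effective library sizes from the TMM factors. The edgeR script was first tested on simulated data with known changes. Alternatives were DESeq2 1.42.0, limma-voom (limma 3.58.1), other scalings and filters, a replicate block and each library left out.

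The members and lists were chosen with earlier results of these data known. All 6 members are named, with the called IDs (mean of at least 5 CPM) most like and most opposite to Klf6 by Pearson r of log2 CPM (prior count 2), 2 of each. The planned lists by symbol were not run, since 0 of the IDs matched the gene name tables, which are human. Intervals from counts cover counting error only.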

Additional observations from a re-analysis of the deposited data

How the results depend on the processing

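The count of 5 members called lower held with other scalings (RLE, upper quartile, none), other filters, DESeq2, limma-voom and the replicate block, and ranged from 4 to 5 when each library was left out; 0 were called higher in any of these. Over all tested IDs, 1830 to 2222 were called lower in the scalings, filters, tools and block, of 11400 to 18051 tested. With 1 library left out, 1644 to 1929 were called lower, of 11635 to 11746 tested. Klf10 was the gene lost, without control replicate 2. In that fit 1644 of 11639 IDs were called lower, beside 2030 of 11400 with all libraries. Log2 fold changes over the scalings, filters, tools and the block ran from -1.64 to -1.60 for Klf3, -0.83 to -0.80 for Klf6, -0.76 to -0.73 for Klf5, -0.38 to -0.35 for Klf4 and -0.33 to -0.30 for Klf10. With 1 library left out they ran from -1.71 to -1.47, -0.92 to -0.75, -0.76 to -0.73, -0.48 to -0.27 and -0.34 to -0.28 in the same order. No scaling moved the median of all tested IDs by more than 0.1. In the fit with a replicate block, 5 members were called lower, and Klf6 had a log2 fold change of -0.81, Klf3 -1.61, Klf4 -0.37, Klf5 -0.74 and Klf10 -0.31. The block moved the count of all IDs called lower from 2030 to 2045. The correlation of deviations between samples of the same number was 0.032, 0.090 and 0.044 for numbers 1, 2 and 3. Each GOLPH3 shRNA replicate was nearest to the control of its own number, though control 1 was nearer to GOLPH3 shRNA replicate 3 (0.037). These correlations are low and the labels do not say that the numbers pair samples. The block was therefore kept as an alternative only. Klf2 could be fitted only with no filter on low counts, where its log2 fold change was 1.03 (SE 0.88) and it was not called. The planned counts for other Krüppel-like and Sp factors were not run. Depth limits Klf2 and, less, Klf3.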
